A study of Mus musculus with 11 samples.

Results

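The comparison described here asked how 4-hydroxybenzophenone (4HBP), a breakdown product of the sunscreen agent benzophenone, altered the transcripts of mouse neural stem cells (NSCs) kept in differentiation medium. It rests on 5 of the 11 samples of the series, 3 differentiation libraries with 4HBP and 2 differentiation libraries with EtOH (vehicle), chosen by their titles. The NSCs were prepared from the hippocampus of C57BL/6 mouse embryos, and no allele or transgene is named for any group. Differentiation medium held B27 supplement and lacked the growth factors EGF and bFGF, whereas the proliferation medium of the other 6 libraries, 3 with 4HBP and 3 with EtOH (vehicle), contained both. Treatment ran for 7 days at 1 µM in both media. In the sample labels 4HBP is spelled out as 4-hydroxybenzoic acid, whereas the study calls it 4-hydroxybenzophenone, the name kept here. No label states whether the libraries of a group came from separate cultures, so p-values measure only the spread between these libraries, which may be technical. A culture of this kind holds several cell types at once, and in such bulk RNA fewer cells of a type and less RNA per cell cannot be told apart.

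The 5 differentiation libraries held between 20822921 and 23438463 expected counts. Values below are counts per 1000000 counts of a library (CPM), and 3 counts, the fewest taken as a signal, equalled 0.128 to 0.144 CPM. Astrocytic, oligodendroglial and neuronal transcripts were all detected. Gfap, the astrocyte filament, lay between 1426 and 1742 CPM and Mbp, a myelin protein, between 3132 and 3429 CPM. Dcx, a marker of immature neurons, lay between 172 and 191 CPM. Other neuronal markers ranged from Map2, at 650 to 689 CPM, to Nefh, at 0.365 to 0.725 CPM. Rbfox3, a marker of mature neurons, lay between 1.94 and 2.96 CPM. None of the 30 neuronal, 26 astrocytic or 25 stem-cell markers was at 0 in all 5 libraries. Microglial Cx3cr1 stayed between 0.0447 and 0.274 CPM and endothelial Pecam1 between 0.176 and 0.449 CPM. Mitochondrially encoded transcripts took 5.76 to 6.24% of the counts.

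Of 15484 genes tested with edgeR, 408 (2.63%) had an adjusted p under 0.05. With 4HBP, 200 genes were higher (1.29% of those tested) and 208 lower (1.34%). Changes were small: the median log2 fold change was 0.26 among the higher and -0.25 among the lower genes, 347 of the 408 changed by less than 0.58 on the log2 scale, and the smallest change called was 0.11. All 408 had 4HBP and vehicle libraries that did not overlap, against 32.9% of all tested genes. The spread between libraries of a group was narrow in differentiation medium, with a common biological coefficient of variation of 0.0368 against 0.117 among the 6 proliferation libraries. The count of called genes leaned on single libraries. Without the first vehicle library 83 genes were called, without the second 214, without the second or the third 4HBP library 270 each, and without the first 306. Of 81 called genes chosen by a naming rule, 24 kept their call without the first vehicle library, 42 without the second, and 54, 49 and 58 without 4HBP library 1, 2 and 3. No gene passed limma on log2(CPM + 1) with an adjusted p. In that fit 2660 genes had an unadjusted p under 0.05, and 66 of these changed by more than 0.58 on the log2 scale. The study applied that unadjusted kind of threshold and reported a larger count in differentiation medium, which this fit did not reproduce. No gene passed an edgeR fit to all 11 libraries (740 unadjusted), whose wider spread is shared by both media.

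**Figure D1:**
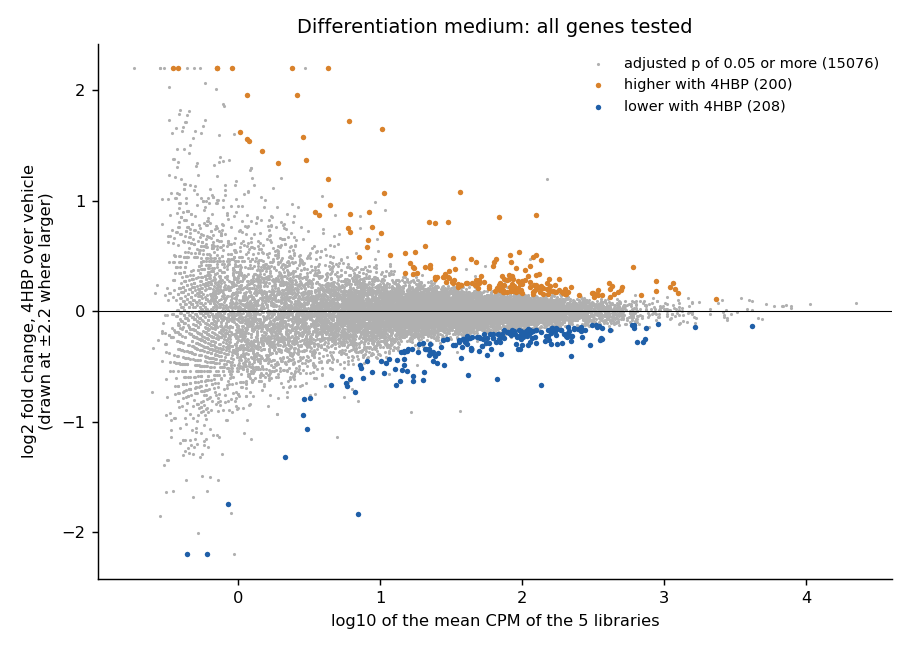
Each point is 1 of the 15484 genes tested in differentiation medium, by log10 of its mean CPM (horizontal) and its log2 fold change of 4HBP over vehicle (vertical, drawn at ±2.2 where larger). The 200 higher genes are orange and the 208 lower genes blue, and above 10 CPM nearly all of them lie within 1 log2 unit of 0.

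Of the gene lists examined, cholesterol synthesis and uptake held the most called genes. Cells make cholesterol from acetyl-CoA through the mevalonate pathway and also take it up from lipoproteins. When sterols in the endoplasmic reticulum (ER) run low, the transcription factor SREBP-2, encoded by Srebf2, is released from its ER anchor INSIG and raises nearly all genes of synthesis and uptake together, while oxysterols act through LXR to raise exporters such as Abca1. In brain this synthesis is local, since lipoproteins do not cross from the blood, and astrocytes and myelinating oligodendrocytes make most of it.

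Of 31 genes listed for cholesterol and fatty acid synthesis and uptake, 30 were tested, 20 were higher with 4HBP, 1 was lower and 9 did not pass. Over all genes tested 1.29% were higher and 1.34% lower. The median log2 fold change of the 30 was 0.33, against -0.0011 over all genes tested, and 27 of the 30 were above 0. The 20 were counted as 15 without the first vehicle library and 19 or 20 without any other. Together the 20 higher genes took 0.268, 0.276 and 0.284% of the counts in the 4HBP libraries and 0.210 and 0.222% in the vehicle libraries, a description of genes already chosen by their calls.

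The first enzymes condense acetyl groups and make mevalonate. Acat2, which joins acetyl-CoA units, measured 68.5 and 71.2 CPM with vehicle and 87, 87.5 and 87.6 CPM with 4HBP, a log2 fold change of 0.33 ± 0.043 (SE, adjusted p = 0.000479). Hmgcs1, the HMG-CoA synthase and the most abundant of the 20, stood at 486 and 529 CPM with vehicle and at 632, 683 and 687 CPM with 4HBP (0.40 ± 0.043, adjusted p = 0.000108). In both the lowest 4HBP library lay above the highest vehicle library.

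Mevalonate is then phosphorylated, decarboxylated and built into isoprenoids. Mvk, mevalonate kinase, rose by 0.38 on the log2 scale and Mvd, the decarboxylase, by 0.47 (adjusted p = 0.00654 and 0.000268). Between them in the pathway, Pmvk showed 23 and 22.2 CPM with vehicle and 25.9, 25 and 24.7 CPM with 4HBP, a difference of 0.17 ± 0.067 that did not pass (adjusted p = 0.225). Idi1, the isomerase of isopentenyl diphosphate, went from 71.6 and 77.8 CPM to 103, 111 and 111 CPM (1.45-fold, log2 0.54 ± 0.05, adjusted p = 3.25e-05). Fdps, which makes farnesyl diphosphate at the branch toward sterols and prenylated proteins, went from 67.8 and 63.4 CPM to 91.2, 90.9 and 96.3 CPM (1.42-fold, log2 0.51 ± 0.047, adjusted p = 3.25e-05). Both were among the 6 higher genes with the smallest p of all those tested.

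Squalene and the sterol nucleus follow. Fdft1, squalene synthase, was higher by 0.45 ± 0.054, Sqle, squalene epoxidase, by 0.33 ± 0.041, and Lss, which closes the rings to lanosterol, by 0.32 ± 0.051 on the log2 scale (adjusted p = 0.00027, 0.000333 and 0.00282). Cyp51, lanosterol demethylase, had the smallest p of all higher genes. Its vehicle libraries read 109.7 and 114 CPM and its 4HBP libraries 151, 155 and 155 CPM, a 1.38-fold difference (log2 0.47 ± 0.039, adjusted p = 1.23e-05). As TPM, the measure scaled to transcript length, its mean was 50.9 TPM with vehicle and 69.4 TPM with 4HBP. Of the enzymes that trim lanosterol to cholesterol, Msmo1, Nsdhl, Sc5d and Dhcr7 were higher by 0.42, 0.45, 0.26 and 0.45 (adjusted p from 0.000323 to 0.00636), while Tm7sf2, Ebp and Hsd17b7 did not pass, with log2 fold changes of 0.095, 0.057 and 0.021.

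Genes of sterol sensing and transport were higher too. Stard4, a carrier of cholesterol within the cell, showed the largest change of the list, from 16.2 and 15.7 CPM to 22.6, 25.7 and 23.5 CPM (1.51-fold, log2 0.59 ± 0.081, adjusted p = 0.000673). The sensor gene Insig1, itself a target of SREBP-2, went from 90.2 and 87.7 CPM to 117, 114 and 114 CPM (0.38 ± 0.04, adjusted p = 8.74e-05). Srebf2 had the smallest log2 fold change of the 20, 0.16 ± 0.038, from 291 and 304 CPM to 331, 319.9 and 344 CPM (adjusted p = 0.0287).

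The exporter and the fatty acid genes were not higher. Abca1, which loads cholesterol onto lipoproteins, was the 1 lower gene of the list, at 835 and 791 CPM with vehicle and 692, 689 and 660.1 CPM with 4HBP (-0.25 ± 0.032, adjusted p = 0.000431). Its relative Abcg1 had log2 -0.34 ± 0.13 and did not pass (adjusted p = 0.195). Srebf1, whose product chiefly drives fatty acid synthesis, measured 294 and 286 CPM with vehicle and 273, 272 and 260.1 CPM with 4HBP (-0.11 ± 0.033, adjusted p = 0.114). Fasn, Scd1 and Scd2, which make and desaturate fatty acids, gave 0.086 ± 0.033, 0.0049 ± 0.051 and 0.05 ± 0.035 (adjusted p = 0.198, 0.976 and 0.534), and none passed.

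**Figure D2:**
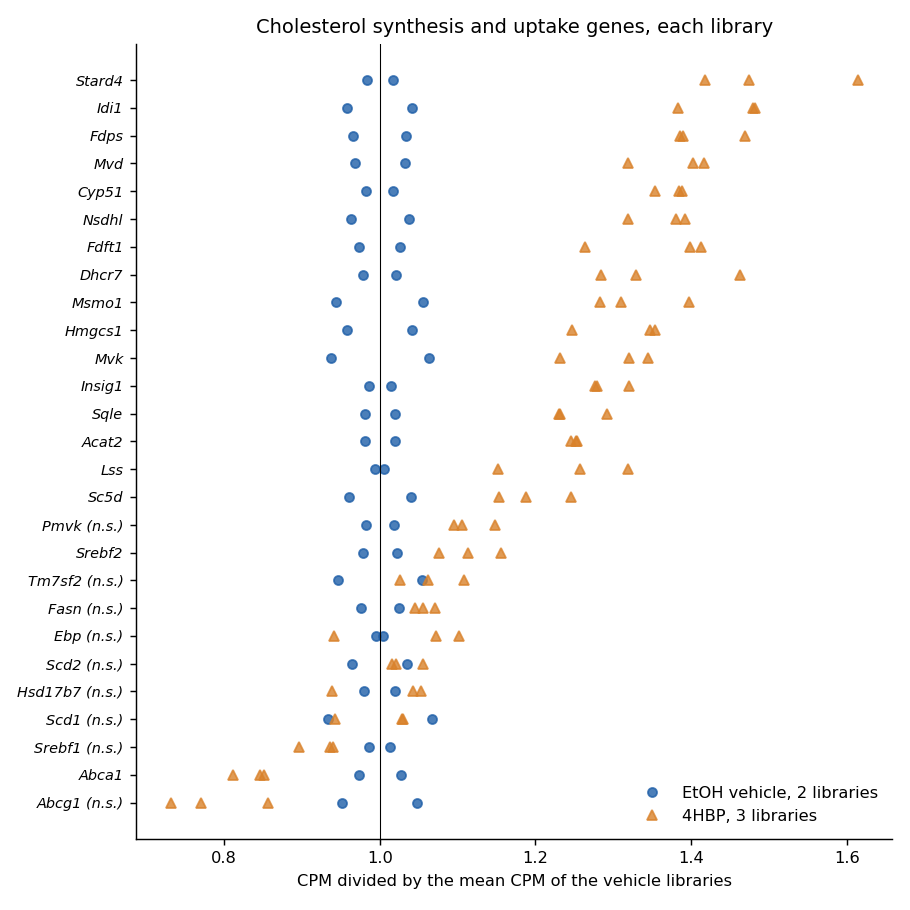
Each row is 1 of 27 tested genes of cholesterol and fatty acid synthesis and uptake, ordered by log2 fold change, and each point 1 library, as its CPM divided by the mean CPM of the vehicle libraries (horizontal). Blue circles are the 2 vehicle and orange triangles the 3 4HBP libraries, and n.s. marks the 9 genes that did not pass. In the 17 higher genes drawn every triangle lies to the right of both circles.

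Bases just upstream of the start sites of 5 of the higher sterol genes are shown because SREBP-2 is known to work with the factor NF-Y, which binds CCAAT boxes close to such starts. The sequences are RefSeq's, build GRCm38.p6, read along the gene toward its start, and capitals mark CCAAT or its reverse ATTGG, or, in Hmgcs1, a match to the sterol response letters TCACNCCAC.
Cyp51 (chr5:4104698-4104777, minus strand): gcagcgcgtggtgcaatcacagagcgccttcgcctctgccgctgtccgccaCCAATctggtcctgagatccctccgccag
Idi1 (chr13:8885526-8885605, plus strand): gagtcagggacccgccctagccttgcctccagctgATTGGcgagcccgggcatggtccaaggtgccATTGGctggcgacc
Mvd (chr8:122443423-122443502, minus strand): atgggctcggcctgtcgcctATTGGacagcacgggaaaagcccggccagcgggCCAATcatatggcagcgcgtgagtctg
Nsdhl (chrX:72918441-72918520, plus strand): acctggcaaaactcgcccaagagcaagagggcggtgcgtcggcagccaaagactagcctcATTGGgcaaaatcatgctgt
Hmgcs1 (chr13:119690199-119690278, plus strand): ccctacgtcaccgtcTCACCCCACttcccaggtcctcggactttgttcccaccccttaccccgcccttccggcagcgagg
The first 4 stretches are the last 80 bases before the start, and that of Hmgcs1 covers -152 to -73. Promoters from 250 bases before to 50 after the start were listed for 13 of the 20 higher sterol genes and for 11070 tested genes. CCAAT stood on either strand in 12 of these 13 (92.3%) and in 43.3% of all tested genes with a promoter, and it stood in 6 of the 7 genes of the list that were not higher and had a promoter listed (85.7%). The sterol letters were found in Hmgcs1 alone of the 13 (7.69%), at -137 to -129, and in 1.36% of tested genes. A match is a description of these letters and not a site of binding.

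In proliferation medium these 20 genes had values on the other side of 0. There 1127 of 14449 genes tested were called (7.8%), from 6 libraries of which none is shared with the differentiation contrast. All 20 had a negative log2 fold change, from -0.92 to -0.29 with a median of -0.60, but only Mvk and Nsdhl passed the test in proliferation medium (-0.92 ± 0.22 and -0.85 ± 0.22, adjusted p = 0.0351 and 0.0485). The difference between the media was tested as an interaction across all 11 libraries, in which 684 of 15920 genes were called (4.3%). It was called for 8 of the 20, Insig1, Hmgcs1, Mvd, Fdft1, Nsdhl, Stard4, Sc5d and Mvk. It was also called for Abca1, Fasn, Scd1 and Scd2, the latter 3 of which fell in proliferation medium (-0.76, -1.01 and -0.60 on the log2 scale, adjusted p = 0.0329, 0.0143 and 0.0393). Levels of the 20 in differentiation vehicle were below those in proliferation vehicle for 17 genes. Summed, the 20 took 0.289 ± 0.025% of counts (SD, n = 3) with proliferation vehicle and 0.194 ± 0.057% (n = 3) with proliferation 4HBP, where the libraries read 0.228, 0.226 and 0.129%. The third 4HBP library thus stood well below the other two.

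Antioxidant genes under NRF2 held the next most higher genes. NRF2 is a transcription factor released by oxidants and electrophiles, and it raises thioredoxin and glutathione enzymes and those that regenerate NADPH. Of 31 listed genes tested, 6 were higher, 0 lower and 25 did not pass, with a median log2 fold change of 0.085. The share higher over all genes tested was 1.29%. Srxn1, which repairs oxidised peroxiredoxins, led with 79.9 and 74 CPM under vehicle and 101, 99.8 and 100.2 CPM under 4HBP (0.39 ± 0.043, adjusted p = 0.000131). Slc7a11, the cystine importer that feeds glutathione, went from 69.3 and 62.7 CPM to 88.5, 75.6 and 77.1 CPM (0.29 ± 0.062, adjusted p = 0.0175). Me1 and Tkt, which supply NADPH and pentose sugars, rose by 0.21 and 0.17, the glutathione transferase Gstm5 by 0.19 and thioredoxin reductase Txnrd1 by 0.16 (adjusted p from 0.0116 to 0.0389). Several classical NRF2 targets did not pass. Hmox1 (heme oxygenase) measured 113 and 104 CPM with vehicle and 112, 106 and 116 CPM with 4HBP (0.045 ± 0.047, adjusted p = 0.698), Gclm, a subunit of the glutathione-making ligase, gave -0.025 ± 0.038 (adjusted p = 0.816), and the quinone reductase Nqo1 gave 0.39 ± 0.13 at only 5.76 to 8.64 CPM (adjusted p = 0.138). Without the first vehicle library 1 gene of the list was called, and without the second 2. In proliferation medium 6 genes of the list were higher and 0 lower. The rise of Slc7a11 was smaller in differentiation than in proliferation medium (1.47 ± 0.23 there, interaction adjusted p = 0.0411), while Hmox1, not called here, rose in proliferation medium (0.91 ± 0.15, interaction adjusted p = 0.0234).

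A few chaperones of the ER were higher by small amounts. The unfolded protein response is the reaction of a cell to misfolded protein in the ER, with branches run by ATF6, by IRE1 through Xbp1, and by PERK through ATF4. Among 29 listed genes tested, 5 were higher, 0 lower and 24 did not pass, beside 1.29% higher over all genes tested. Of the 29, 24 were above 0, with a median of 0.057. Hspa5, the chaperone BiP, read 383 and 381 CPM with vehicle and 445, 433 and 433 CPM with 4HBP (0.20 ± 0.031, adjusted p = 0.0019). Its co-chaperone Hyou1 read 86.7 and 87.8 CPM and 102, 106 and 102 CPM (0.25 ± 0.041, adjusted p = 0.00325). P4hb, a disulfide isomerase, Calr, a calcium-binding chaperone, and Xbp1 rose by 0.15, 0.15 and 0.25 (adjusted p = 0.014, 0.0141 and 0.0312). Hsp90b1 and Pdia4 of the same family did not pass (0.028 ± 0.033 and 0.043 ± 0.043). The count was 1 without the first vehicle library, 2 without the second or without the second 4HBP library, and 3 without the third. The difference between the media was called for P4hb and Pdia4, of which Pdia4 fell in proliferation medium (-0.47 ± 0.095, adjusted p = 0.0229).

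For these chaperone and antioxidant genes the letters of their response elements are shown, since the ER element joins a CCAAT box to CCACG across a fixed gap and its matches are rare. Capitals mark CCAAT and CCACG with 9 bases between them, on either strand, in Hspa5 and Calr, and TGACNNNGC on either strand in Txnrd1.
Hspa5 (chr2:34772010-34772089, plus strand): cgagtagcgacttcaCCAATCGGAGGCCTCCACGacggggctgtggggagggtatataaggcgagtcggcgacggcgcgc
Calr (chr8:84847029-84847108, minus strand): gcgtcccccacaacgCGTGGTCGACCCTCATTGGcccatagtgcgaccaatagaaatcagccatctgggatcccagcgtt
Txnrd1 (chr10:82859099-82859178, plus strand): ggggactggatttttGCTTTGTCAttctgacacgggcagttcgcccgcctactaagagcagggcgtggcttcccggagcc
The ER letters, which contain a CCAAT box, were present in 2 of 4 higher chaperone genes with a promoter listed, in 7 of 20 chaperone genes that were not higher and in 0.163% of tested genes. TGACNNNGC was present in 4 of 6 higher NRF2 genes (66.7%), in 7 of 21 of that list that were not higher (33.3%) and in 16.6% of tested genes.

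ATF4, the factor translated when eIF2α is phosphorylated, raises amino acid transporters, tRNA synthetases and serine enzymes. Its targets held the most genes of any list whose effect differed between the media. Of 35 tested in differentiation medium 2 were higher, 4 lower and 29 did not pass, with a median log2 fold change of -0.024, whereas in proliferation medium 27 of 35 were higher, 0 lower and the median was 0.85. The interaction was called for 19 of the list. Over all genes tested 2.63% were called in differentiation medium, 7.8% in proliferation medium and 4.3% in the interaction. Atf5, a target and relative of ATF4, fell from 306 and 279 CPM to 256, 229 and 259 CPM in differentiation medium (-0.23 ± 0.048, adjusted p = 0.0162). In proliferation medium it measured 114, 89.9 and 116 CPM with vehicle and 334, 389 and 498 CPM with 4HBP (1.89 ± 0.14, adjusted p = 0.000853), and its interaction had an adjusted p of 0.000111. The vehicle libraries of Atf5 thus lay higher in differentiation than in proliferation medium, a difference not tested here. Slc7a5, the carrier of leucine and other large amino acids, fell by 11.4% in differentiation medium (log2 -0.17 ± 0.04, adjusted p = 0.0269) and rose in proliferation medium (1.12 ± 0.1, adjusted p = 0.00187). Pck2, a mitochondrial enzyme of gluconeogenesis, behaved likewise, with -0.36 in differentiation medium (adjusted p = 0.0352) and 1.46 in proliferation medium (adjusted p = 0.00398, interaction adjusted p = 0.00204). Vegfa, a growth factor of vessels, had -0.24 and 0.67 (adjusted p = 0.00667 and 0.0273). The higher pair in differentiation medium were Slc7a11 and the glycine transporter Slc6a9 (0.23 ± 0.051, adjusted p = 0.0248). Asns, the asparagine synthetase, stood at 44.1 and 47.9 CPM with vehicle and 45.8, 48.7 and 49.1 CPM with 4HBP (0.062 ± 0.057, adjusted p = 0.651), against 1.37 in proliferation medium. Atf4 itself read 175 and 175 CPM and 184, 185 and 194 CPM in differentiation medium and did not pass (0.11 ± 0.037, adjusted p = 0.145), and Ddit3, which encodes CHOP, gave -0.079 ± 0.1 (adjusted p = 0.778). Among the 4 lower members only 1 was called without either vehicle library or without the second 4HBP library.

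**Figure D3:**
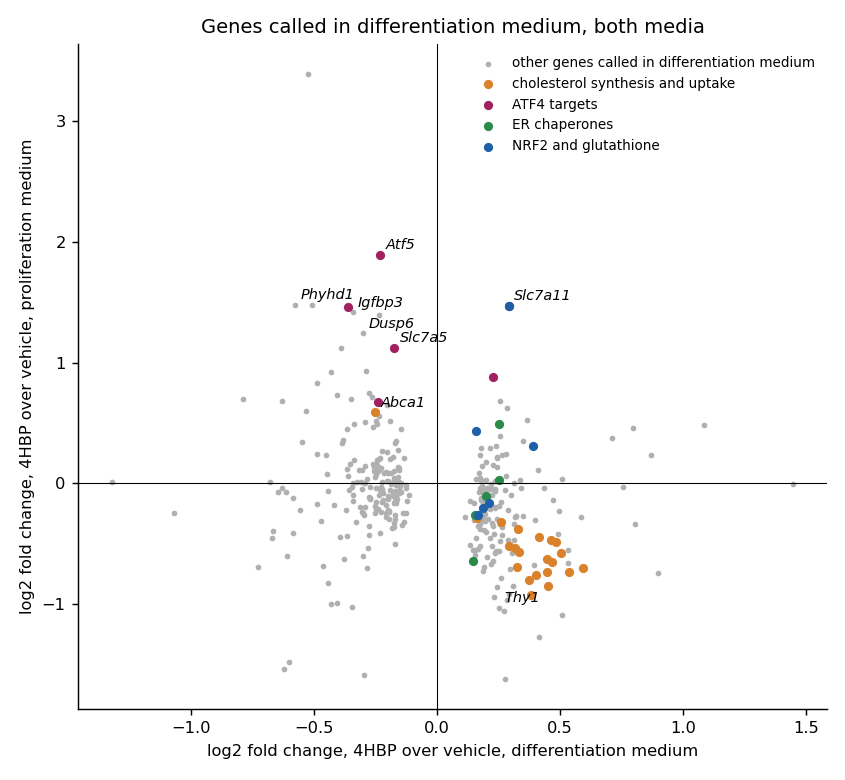
Each point is a gene called in differentiation medium, by its log2 fold change of 4HBP over vehicle there (horizontal) and in proliferation medium (vertical), for the 369 of 408 that were tested in both and changed by less than 1.5 log2 units. Colours mark 4 gene lists, with Slc7a11, a member of the ATF4 and NRF2 lists, in the NRF2 colour, and the cholesterol genes fill the lower right apart from Abca1 at the upper left.

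Across all genes, 70 were called in both media, and 55 of the 70 had opposite directions. They were 17.2% of the differentiation calls, beside 7.8% called in proliferation medium over all genes tested there. They were 6.21% of the proliferation calls, beside 2.63% called in differentiation medium over all genes tested. The shared number ranged from 12 to 100 and the opposite from 11 to 74 when single proliferation libraries were left out, with the fewest without the first proliferation vehicle library and the most without the third proliferation 4HBP library. Without the first differentiation vehicle library 11 were shared and 8 opposite. Of the 408 genes, 95 differed between the media by the interaction test, beside 684 of 15920 (4.3%) over all genes tested for it. The 408 were called in the same differentiation libraries that enter the interaction, so a higher share is partly built in.

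A few receptors and targets of growth factor signalling were lower. ERK signalling downstream of FGF and EGF receptors induces its own brakes, among them DUSP6 and the Sprouty proteins. Of 25 such genes tested 3 were lower, 0 higher and 22 did not pass, the median being -0.076. Over all genes tested 1.34% were lower. Dusp6, the ERK phosphatase, read 37 and 37.2 CPM with vehicle and 28.9, 29.7 and 31.6 CPM with 4HBP (-0.30 ± 0.061, adjusted p = 0.0139). In proliferation medium it rose from 14.1, 10.3 and 14.7 CPM to 29.4, 33.8 and 31.3 CPM (1.24 ± 0.13, interaction adjusted p = 0.000563), so that the media differed in direction. Fgfr1, an FGF receptor, and Ccnd1, the cyclin that growth factors induce, had log2 fold changes of -0.15 ± 0.033 and -0.18 ± 0.043 (adjusted p = 0.0207 and 0.0352). Spry2 and Spry4 did not pass (-0.0083 ± 0.043 and -0.25 ± 0.094). No gene of this list was called when either vehicle library was left out, and 1 when any 4HBP library was. Of the insulin-like growth factor system, Igf1r, its receptor, fell from 85.4 and 79.2 CPM to 63.2, 61.9 and 62.9 CPM (-0.39 ± 0.045, adjusted p = 0.00024), and Igfbp3, a binding protein, fell from 111 and 112 CPM to 88.7, 86.4 and 86.8 CPM (-0.34 ± 0.039, adjusted p = 0.000185). Both were among the 6 lower genes with the smallest p, and both kept their call whichever single library was left out.

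**Figure D4:**
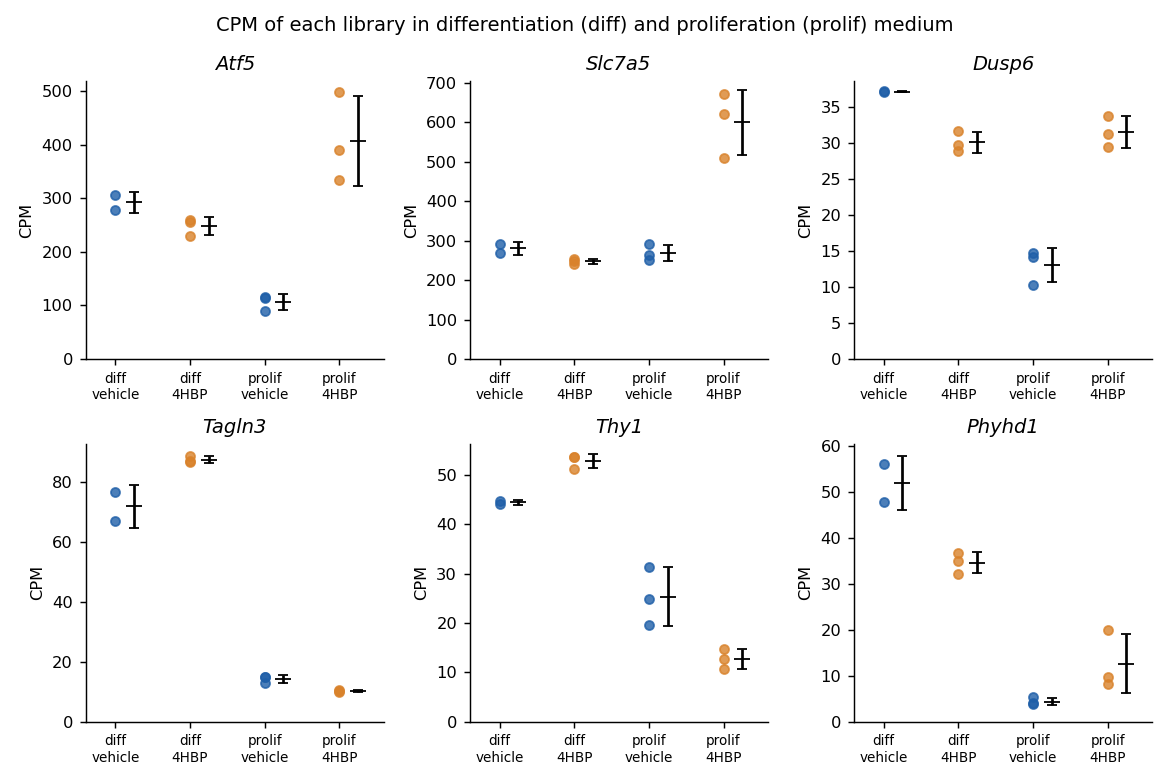
CPM of every library (vertical, from 0) for the 6 named genes with the smallest p of the difference between media, in the 4 groups of the study. Blue points are vehicle and orange points 4HBP libraries, and the bar beside each group is its mean ± SD of 2 or 3 libraries. Atf5, Slc7a5, Dusp6 and Phyhd1 were lower with 4HBP in differentiation and higher in proliferation medium, and Tagln3 and Thy1 the reverse.

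Calls among neuronal and glial markers are read against the 2.63% called over all genes tested. Of 30 neuronal cytoskeleton and identity genes 2 were higher, 0 lower and 28 did not pass, the median being -0.008. Tagln3, an actin-associated protein of young neurons, went from 77 and 66.9 CPM to 86.9, 89 and 87 CPM (0.29 ± 0.051, adjusted p = 0.00542). Thy1, a surface protein of neurons, went from 44 and 44.8 CPM to 53.5, 51.1 and 53.5 CPM (0.25 ± 0.051, adjusted p = 0.0133). Both fell in proliferation medium (-0.50 and -1.03, interaction adjusted p = 0.00384 and 0.00554). Tubb3, the tubulin stained to mark neurons, read 61.8 and 66.8 CPM with vehicle and 76.4, 65.2 and 72.6 CPM with 4HBP (0.15 ± 0.06, 95% confidence interval 0.027 to 0.28, adjusted p = 0.21). Its groups overlapped. The summed list took 0.385 and 0.383% of counts with vehicle and 0.380, 0.378 and 0.379% with 4HBP, a narrow gap without overlap. Among 17 genes of granule and pyramidal neuron fate, Igfbpl1, a marker of newborn neurons, was higher (0.39 ± 0.094, adjusted p = 0.0356) and the glutamate receptor Gria1 lower (-0.17 ± 0.041, adjusted p = 0.0352). Of 18 GABAergic and 29 synaptic or channel genes 0 passed, which in lists of this size is near the overall share of 2.63%.

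Of 26 astrocyte genes 1 was higher and 1 lower, with a median of 0.0016. Gfap, the stain for astrocytes, measured 1742 and 1439 CPM with vehicle and 1690.4, 1617 and 1426 CPM with 4HBP (-0.0054 ± 0.064, 95% confidence interval -0.14 to 0.13, adjusted p = 0.979). In proliferation medium Gfap fell (-0.68 ± 0.11, adjusted p = 0.0115) with 12 other genes of the list, and the difference between the media was called (adjusted p = 0.0212). Id3, a target of BMP signalling listed here as an astrocyte gene, rose from 66.9 and 71.9 CPM to 84.3, 83.2 and 84.9 CPM (0.28 ± 0.046, adjusted p = 0.00307). Glul, the glutamine synthetase of astrocytes, fell from 4323 and 4452 CPM to 3918, 3967 and 4069 CPM (-0.13 ± 0.031, adjusted p = 0.0304). None of 28 reactive astrocyte genes passed.

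Stem and radial glial genes gave 3 higher and 1 lower of 25, with a median of 0.051. Fabp7, the lipid-binding protein of radial glia, went from 371 and 415 CPM to 438, 462 and 476 CPM (0.23 ± 0.046, adjusted p = 0.0138), and the difference from proliferation medium, where it was -0.35, was called (adjusted p = 0.0204). Hopx, which marks quiescent hippocampal stem cells, rose by 0.31 ± 0.07 and Tnc, a matrix protein of stem cell niches, by 0.28 ± 0.061 (adjusted p = 0.024 and 0.0188). Fgfr1 was the lower gene. Nes, which encodes the stem cell filament nestin, and Sox2 did not pass (-0.014 ± 0.049 and 0.0068 ± 0.035). The 3 higher genes were all lost without the first vehicle library or without the second 4HBP library. In the oligodendrocyte lineage, 1 of 22 precursor genes was higher, the calcium channel subunit Cacng4 (0.21 ± 0.051, adjusted p = 0.0393). Of 24 myelin genes, Tspan2, a membrane protein of oligodendrocytes, was higher (0.29 ± 0.042, adjusted p = 0.00112) and Gjc3, a connexin, and Nfasc, an adhesion protein of the node, lower (-0.20 ± 0.037 and -0.14 ± 0.028, adjusted p = 0.00733 and 0.014), while Mbp gave -0.0052 ± 0.036 and did not pass. No microglial, endothelial or fibroblast, or ependymal gene passed, of 6, 12 and 12 tested. Of the 12 endothelial and fibroblast genes, 11 were below 0 with a median of -0.19, against -0.0011 over all genes tested. These 12 include Pdgfra and Cspg4, which are also on the precursor list. Apart from Pdgfrb, the others were scarce, at no more than 2.77 CPM, so their values are imprecise.

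Of 40 cell cycle genes tested 32 were above 0 with a median log2 fold change of 0.23, and 2 were higher and 1, Ccnd1, lower, beside 2.63% called over all genes. Ccnb1 and Ccnd1 lost their calls whichever library was left out, and Rrm2 kept its call in 2 of 5 such fits. Rrm2, which supplies nucleotides for DNA synthesis, read 16.8 and 20.7 CPM with vehicle and 24.5, 22.5 and 27.2 CPM with 4HBP (0.40 ± 0.096, adjusted p = 0.0372). Ccnb1, the mitotic cyclin, read 5.61 and 5.89 CPM and 7.74, 8.02 and 8.45 CPM (0.49 ± 0.13, adjusted p = 0.0464). Mki67, the proliferation antigen stained in the study, was 35 and 45.4 CPM with vehicle and 46.2, 47.8 and 57.2 CPM with 4HBP and did not pass (0.32 ± 0.097, 95% confidence interval 0.12 to 0.53, adjusted p = 0.0954). Its vehicle libraries differed from each other by about as much as the groups did.

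The lists of this paragraph held few called genes each, to be read beside the 2.63% called over all genes tested. Nrarp and Dtx4, which modulate Notch signalling, were higher of 24 Notch genes (0.26 ± 0.065 and 0.18 ± 0.037, adjusted p = 0.0391 and 0.015). Of 28 Wnt genes the ligand Wnt7a was higher (0.32 ± 0.066, adjusted p = 0.0172) and the secreted Dkk3 lower (-0.56 ± 0.11, adjusted p = 0.0109), and of 30 BMP and TGFβ genes Id3 alone was called. Among 40 matrix and adhesion genes Tnc, the integrin Itga6 and the protease Mmp14 were higher and Sparc, a matrix glycoprotein, lower. Sparc fell from 839 and 763 CPM to 689, 655 and 629 CPM (-0.28 ± 0.04, adjusted p = 0.00112). Of 34 glycolysis and hypoxia genes 3 were lower, Vegfa, Mxi1, a MYC antagonist, and Kdm3a, a histone demethylase (-0.22 ± 0.048 and -0.16 ± 0.041 for the latter pair, adjusted p = 0.0197 and 0.0495). Without 4HBP library 1, 2 and 3 the lower genes of this list numbered 2, 2 and 1. The higher matrix genes numbered 2, 1 and 2 in the same fits. Of 22 genes of xenobiotic and steroid handling 2 were lower and 0 higher. They were Sult1a1, a phenol sulfotransferase, at 14.6 and 18.9 CPM with vehicle and 10.3, 10.2 and 11.2 CPM with 4HBP (-0.66 ± 0.11, adjusted p = 0.00389), and Ugt1a6a, a glucuronosyltransferase for phenols, at 19.97 and 14.9 CPM and 13.1, 13 and 12.5 CPM (-0.43 ± 0.11, adjusted p = 0.0436). Ugt1a6a shares exons with its neighbours, so the assignment of its reads is uncertain, and it rose in proliferation medium (0.92, interaction adjusted p = 0.00957).

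Lists of inflammation, heat shock and cell death held 0 or 1 called gene each, which with 2.63% of all tested genes called is near the overall share. The stress lists of NRF2, ER chaperones and ATF4 targets, given above, held more. None of 24 NFκB targets and cytokines, 24 heat shock, 27 immediate early or 39 axon guidance genes passed. One of 31 interferon genes, Ifit2, was lower (-0.34 ± 0.073, adjusted p = 0.0172), as were 1 of 34 p53 and apoptosis genes, the anti-apoptotic Bcl2 (-0.25 ± 0.06, adjusted p = 0.0368, a call lost whichever library was left out), and 1 of 32 lysosomal genes, Scarb2 (-0.12 ± 0.029, adjusted p = 0.0349). Of 35 oxidative phosphorylation genes 34 were above 0 with a median of 0.062 and Cycs, cytochrome c, alone passed (0.20 ± 0.05, adjusted p = 0.0416). Of 40 cytosolic ribosomal protein genes 37 were above 0 with a median of 0.055 and 0 passed. Transcript length moved with these shifts: the median log2 fold change was 0.041 in the shortest of 5 equal groups of tested genes and -0.022 in the longest, with 55 higher and 16 lower genes in the former and 36 and 65 in the latter. The part of length in these results was not tested. No clustered histone gene of 9 passed. In proliferation medium 14 genes of the p53 and apoptosis list were higher and 0 lower, and the difference between the media was called for 14.

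**Figure D5:**
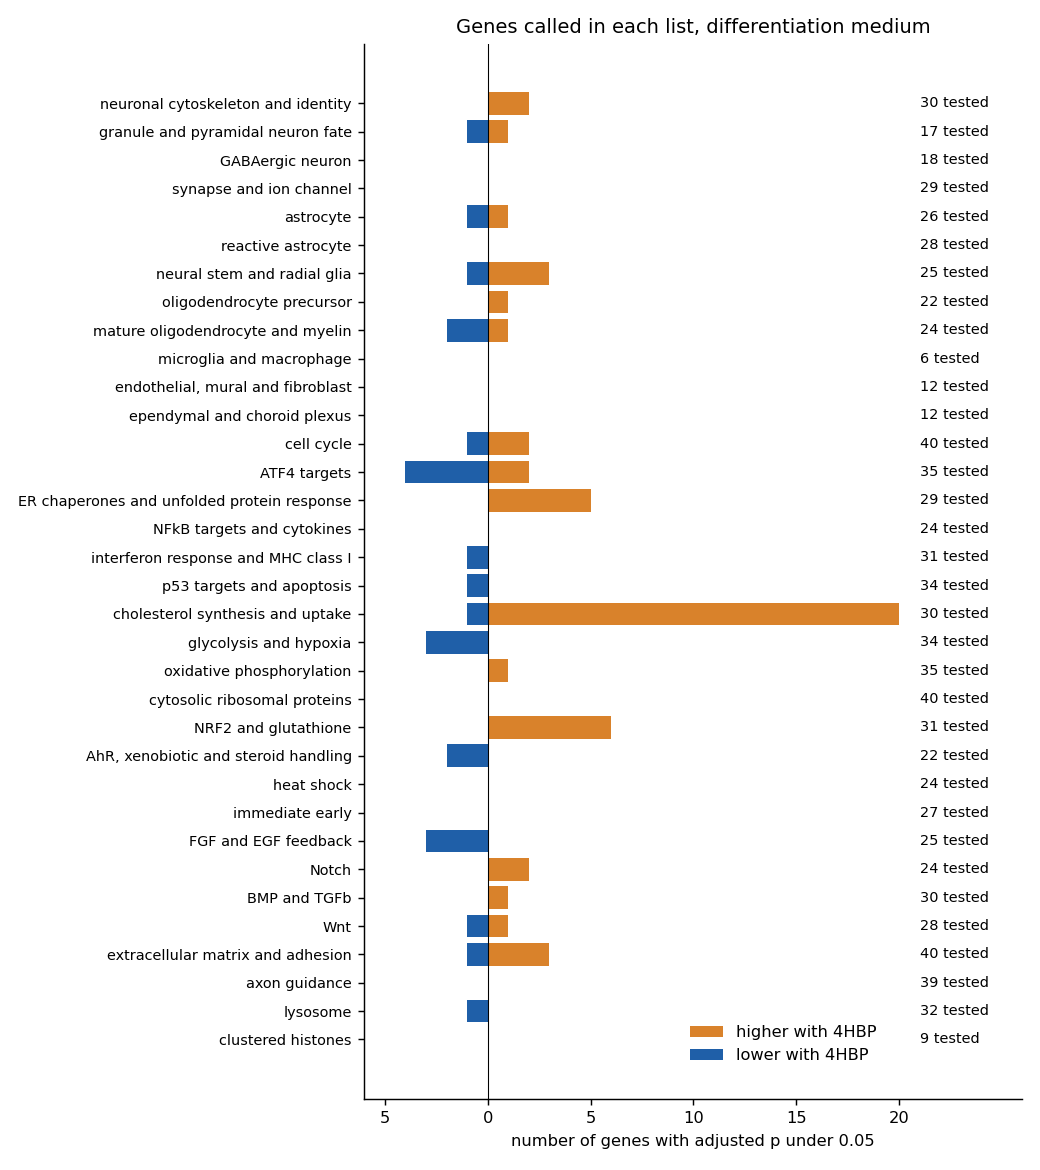
Bars count the genes of each list with an adjusted p under 0.05 in differentiation medium (horizontal), to the right in orange for higher and to the left in blue for lower with 4HBP, with the number of genes tested beside each. Cholesterol synthesis and uptake, with 20 higher of 30, exceeds every other list, of which the next are NRF2 and glutathione with 6 and ER chaperones with 5.

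Genes with a primer or stain in the study were tested in 24 cases, of which Hspa5 and Xbp1 were higher and 22 did not pass. Beside those already given, Rela gave 0.049 ± 0.053, Nfkbia -0.049 ± 0.071, Bax 0.026 ± 0.04, Eif2ak3, which encodes PERK, 0.0075 ± 0.051, Atf6 -0.0038 ± 0.046, Eif2a -0.037 ± 0.049 and Mapk8 -0.066 ± 0.058 on the log2 scale. Each 95% confidence interval included 0, the widest being that of Nfkbia (95% confidence interval -0.20 to 0.10). Ern1, which encodes IRE1α, gave -0.25 ± 0.097 (adjusted p = 0.216), and the mature neuron marker Rbfox3 gave -0.26 ± 0.21 at 1.94 to 2.96 CPM (95% confidence interval -0.71 to 0.19). The reference gene Gapdh read 1528 and 1534 CPM with vehicle and 1576, 1614 and 1661 CPM with 4HBP (0.085 ± 0.032, adjusted p = 0.187).

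The lower genes of smallest p included several with no place in the lists. Fam107a, a stress-responsive actin regulator of astrocytes and radial glia, fell from 269 and 250.02 CPM to 204, 188 and 192 CPM (-0.41 ± 0.039, adjusted p = 3.59e-05). Acsl3, which activates long-chain fatty acids, fell from 739.9 and 713 CPM to 596, 614 and 580.5 CPM (-0.28 ± 0.032, adjusted p = 0.000233), and it fell in proliferation medium as well (-0.42, adjusted p = 0.036). Phyhd1, a dioxygenase, fell from 56.1 and 47.9 CPM to 36.7, 35.1 and 32.1 CPM (-0.58 ± 0.069, adjusted p = 0.000263) and rose in proliferation medium (1.48, interaction adjusted p = 0.00893). Among the higher genes Slc13a3, a carrier of dicarboxylates, went from 89.1 and 102 CPM to 130.5, 136 and 137 CPM (0.49 ± 0.052, adjusted p = 8.74e-05). All 4 kept their calls whichever library was left out.

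The largest fold changes belonged mainly to genes that share reads with others. Of 27 called genes that changed by more than 1 on the log2 scale, 20 were not protein-coding and 22 had expected counts that were not whole in at least 1 library (tolerance 0.005), a sign of reads split between genes, against 31.2% of all tested genes. Gm14288 and Gm14440, zinc finger genes of 1 cluster on chromosome 2, moved in opposite directions. Gm14288 fell from 12.1 and 12.5 CPM to 2.88, 3.79 and 3.63 CPM (-1.83 ± 0.13, adjusted p = 3.59e-06), and Gm14440 rose from 5.61 and 3.45 CPM to 13.8, 15.7 and 12.6 CPM (1.65 ± 0.16, adjusted p = 3.46e-05). Both are near-copies of neighbouring genes and their values are uncertain. Gm45234 had no count in the vehicle libraries and 77.3, 66.7 and 117.1 counts in the 4HBP libraries, at least 59.5-fold higher against a floor of 3 counts over the vehicle group. Its counts were not whole, and its proliferation vehicle libraries read 0.625, 22.8 and 28 CPM. Its level thus varied widely within a group, and its value is uncertain. Gm48342, annotated antisense within Hmgcs1, went from 1.51 and 1.15 CPM to 5.72, 3.41 and 2.64 CPM (1.58 ± 0.32, adjusted p = 0.0148). Whether strand was used in the counting is not given in the sources used here, so reads of Hmgcs1 may be counted in it. In proliferation vehicle Gm48342 read 0.43, 0.14 and 0.14 CPM, where Hmgcs1 read 762, 906 and 684 CPM. Whether its reads come from Hmgcs1 was not tested. Other non-coding or predicted genes among the largest changes were Gm7334 (2.65), Gm10482 (1.96), Gm10241 (1.95), Gm27177 (1.73), 1700071M16Rik (1.62), Gm49262 (1.56), BC060293 (1.54), Gm10874 (1.37), Amd-ps3 (-1.32), Gm48132 (-0.68) and Gm48774 (-0.67). The vehicle libraries read 5.16 and 0.0853 CPM for Gm27177 and 0 and 1.99 CPM for Gm7334. With single libraries left out their log2 fold changes ranged from 0.71 to 6.53 and from 1.69 to 10.2, so both are uncertain.

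Among the other coding genes, the larger falls were mostly of scarce transcripts. Abca8a, a lipid transporter, fell from 5.43 and 3.58 CPM to 2.15, 1.98 and 2.26 CPM (-1.07 ± 0.21, adjusted p = 0.013), and Gabra5, a GABA receptor subunit, from 4.56 and 3.54 CPM to 1.83, 2.29 and 2.16 CPM (-0.94 ± 0.2, adjusted p = 0.0194). Pard6b, a polarity protein, Slco1a4, an organic anion carrier, and Prelp, a matrix protein, fell by 42.1, 41.9 and 39.6%, and Vps51 by 36.1% (adjusted p = 0.0436, 0.0442, 0.036 and 0.0314). Ccn2, a matricellular protein induced by YAP and by TGFβ, was the exception in level, falling from 196 and 156 CPM to 124, 113 and 93.9 CPM (-0.67 ± 0.086, adjusted p = 0.000431). It stayed called without any 1 library. Among rises, the coding gene Ccdc24 went from 1.06 and 0.425 CPM to 2.39, 1.98 and 1.56 CPM (1.45 ± 0.35, adjusted p = 0.0373).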

How the data were processed

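Poly(A) RNA of the cultures was sequenced from stranded libraries. The authors trimmed reads with cutadapt, checked them with FastQC 0.11.5, and quantified them with RSEM 1.3.0 on Bowtie2 2.2.9 against build GRCm38 (mm10). The authors deposited expected counts and TPM per gene and library, 53801 genes each. RSEM divides reads that match several genes, and 18.6% of values above 0 were not whole (tolerance 0.005). Whether counting used strand is not given in the sources used here. Gene names came from GENCODE on GRCm38, which matched 99.7% of identifiers, and promoters from RefSeq on GRCm38.p6.

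Expected counts were rounded and tested with edgeR 4.0.16 (quasi-likelihood, TMM, filterByExpr) in R 4.3.3 on the 5 differentiation libraries alone, with Benjamini-Hochberg adjustment at 0.05. SE follow a log2 fold change after ±. CPM were computed from library totals (counts per 1000000), and TPM were used for levels per length only. The proliferation contrast used its 6 libraries and the interaction all 11. The tests were also run on simulated data with the same spread for every gene, unlike real libraries. That run therefore gives no support to the calls here. Alternatives used limma 3.58.1, DESeq2 1.42.0, other scalings and filters, and every library left out in turn. No column of another sample was present (0 columns).

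Genes were named by a rule: the 12 largest changes each way with at least 1 CPM on average, the 6 smallest p each way, up to 5 called members with the smallest p in each of 35 lists, every gene with a primer or stain in the study, and the 6 smallest interaction p. Other list members, and genes in the closing section, were named after their values were seen. The contrast and the lists were chosen with earlier results of these data known. Counting error alone limits the floor of 3 counts. Libraries of 1 group were not duplicates, as their counts differed by more than sampling noise. Some genes are counted in the lists and not reported here by name.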

Additional observations from a re-analysis of the deposited data

Results flagged for a closer look

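The effect of 4HBP differed between the media for 684 genes by the interaction test of edgeR across all 11 libraries, and 24 of the genes named here were among them. Values below are log2 differences, the effect in differentiation minus that in proliferation medium. Stress and growth factor genes were lower relative to proliferation medium: Atf5 (-2.12), Slc7a5 (-1.29), Slc7a11 (-1.17), Vegfa (-0.90), Dusp6 (-1.53), Igf1r (-0.71), Igfbp3 (-1.75) and the anti-apoptotic Bcl2 (-0.76). So were Phyhd1 (-2.05), Ugt1a6a (-1.35), the adhesion protein Cntnap3 (-5.0) and the ATP-gated channel P2rx3 (-4.75). Both rest on scarce counts: in proliferation vehicle Cntnap3 read at most 0.0478 CPM and P2rx3 at most 0.287 CPM, so their fitted values depend on how low counts are handled, and in differentiation medium neither passed (log2 -0.074 ± 0.44 and -0.54 ± 0.44). Sterol genes were higher relative to proliferation medium, Insig1 by 1.19 and Hmgcs1 by 1.17, as were Tagln3 (0.80) and Thy1 (1.29) of neurons, Gfap (0.68) and Fabp7 (0.59) of astrocytes and radial glia, Wnt7a (0.60), Slc13a3 (0.73), Mmp14 (0.62), the glutathione transferase Gstm5 (0.40), the disulfide isomerase P4hb (0.42) and the processed pseudogene Gm10241 (2.2). In 22 of the 24 the effects in the media had opposite signs. Without single libraries the count of 684 ranged from 116 to 1080, lowest without the first differentiation vehicle library, and 123 without the second. The medium differs between these groups together with the cells it produces, and their parts cannot be told apart.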

How the results depend on the processing

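The count of 408 genes in differentiation medium was 441 with library totals, 407 with DESeq2 size factors, 401 with limma voom, 444 with a minimum of 1 CPM and 390 with a filter over the 11 libraries, chosen after seeing the data. DESeq2 called 263 genes, edgeR with no filter 124, and a fold threshold of 0.58 on the log2 scale left 61. Limma on log2(CPM + 1) called 0 genes (2660 with an unadjusted p under 0.05) and 0 of the 20 higher sterol genes. One edgeR fit across all 11 libraries, which takes on the wider spread of the proliferation libraries, also called 0 (740 unadjusted) and 0 sterol genes. The count of 20 was 15 to 20 with single libraries left out. With single libraries left out 83 to 306 genes were called, of which 70 were shared with the 408 at the fewest. In proliferation medium the count of 1127 ranged from 119 (without the first vehicle library, and 137 without the second) to 1434 and that of the interaction, 684, from 116 to 1080. The deviations of same-numbered libraries had a correlation of 0.024 over all genes tested. Counting noise in scarce genes lowers such a value, so it cannot exclude a pairing. With the number as a replicate block, 760 genes were called in differentiation medium, including all 408, 554 in proliferation medium and 724 in the interaction. In differentiation medium the third 4HBP library stands alone in its block, so that fit has little left to measure the spread. All 81 called genes named here kept their direction under every alternative with a value, 59 of them under DESeq2, where 13 missed the threshold. The groups of every called gene did not overlap. A refit of the same libraries could therefore hardly reverse a direction, and the kept directions add no support. Xbp1, Ccnd1, Ccnb1, Bcl2, Pard6b, Mmp14 and Kdm3a lost their calls whichever library was left out. At 2 vehicle libraries, small changes of scarce genes were not detectable, and arms left with 1 library borrow their spread from the other group.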

Other observations

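The called genes below lie outside the lists and were picked singly after their values were seen, so they describe no group. Tmem97, a sterol-regulated membrane protein, and Erg28, a scaffold of sterol demethylation, were higher by 0.35 ± 0.085 and 0.24 ± 0.057 on the log2 scale (adjusted p = 0.0378 and 0.0362), and Rnf145, an ER ubiquitin ligase induced by LXR, was lower (-0.20 ± 0.041, adjusted p = 0.0172), as Abca1 was. Higher genes included the potassium channel Kcnj10 (0.26 ± 0.041), the GABA carrier Slc6a11 (0.22 ± 0.045), the glutamine carrier Slc38a3 (0.28 ± 0.036) and the endothelin receptor Ednrb (0.20 ± 0.034), with adjusted p = 0.00286, 0.0148, 0.000431 and 0.00389. On the astrocyte list the glutamate carriers Slc1a2 and Slc1a3 and the water channel Aqp4 did not pass (0.0086 ± 0.036, -0.055 ± 0.029 and 0.072 ± 0.031). The amino acid enzymes Etnppl and Gldc were lower (-0.54 ± 0.11 and -0.16 ± 0.033, adjusted p = 0.0124 and 0.0172).

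Single lower genes included Vcl, which links actin to adhesions (-0.31 ± 0.04, adjusted p = 0.000431), the actin-binding Cald1 (-0.24 ± 0.047, adjusted p = 0.0116), the scaffold Akap12 (-0.49 ± 0.087, adjusted p = 0.00635), and Wwtr1, which encodes the YAP partner TAZ (-0.17 ± 0.039, adjusted p = 0.0248). Insr, the insulin receptor, was lower with Igf1r (-0.16 ± 0.042, adjusted p = 0.0451). Of an imprinted cluster on chromosome 12, Dlk1 and Meg3 were lower (-0.59 ± 0.14 and -0.32 ± 0.08, adjusted p = 0.0389 and 0.0395) and Dio3, which inactivates thyroid hormone, higher (0.87 ± 0.22, adjusted p = 0.0442). Dlk1 measured 7.16 and 6.31 CPM with vehicle and 4.02, 4.61 and 4.75 CPM with 4HBP, and Dio3 2.60 and 2.39 CPM and 3.76, 4.10 and 5.86 CPM.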
